A study of Saccharomyces cerevisiae with 8 samples.

Results

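The response to glycine was compared between deletion strains of Bas1 and of Bas2 in Saccharomyces cerevisiae, on 4 of the 8 spotted arrays of the series. Arrays of the bas1 strain (deletion set strain Y06015) numbered 2, as did those of the bas2 strain (Y03803), each pair numbered as replicates 1 and 2 in the array titles. On every array, channel 1 held RNA of a strain in minimal medium plus 10 mM glycine and channel 2 RNA of that strain in minimal medium alone, both from steady-state growth to early log phase. Each strain is 1 collection isolate in the BY4741 background, an a-type strain known to lack HIS3, LEU2, MET17 and URA3. On 2 further arrays BY4741 itself served as context. The last arrays of the series, 1 of an shm2 and 1 of a gcn4 deletion strain, entered only the fit over all 8 arrays. With 1 array each, they added nothing to its estimate of the spread. Separate cultures are not named in the labels, and p-values therefore measure the spread between these arrays, which may be technical. The members were chosen by title. For bas2 replicate 1 the source name reads BY4741 whereas title and description read bas2, and the array was kept in bas2. Over genes its ratios correlated at r = 0.462 and r = 0.067 with BY4741 replicates 3 and 1, and at r = 0.157 with bas2 replicate 2. Which strain it held was not tested.

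Bas1 is a Myb-type transcription factor, and Bas2, the product of PHO2, is a homeodomain factor. Together they activate genes of purine synthesis, of histidine synthesis and of one-carbon metabolism, and an intermediate of purine synthesis promotes their pairing. Bas2 also acts without Bas1: with Pho4 it activates acid phosphatase and other phosphate genes. Glycine feeds one-carbon metabolism through the glycine cleavage system, which splits glycine and loads its methylene group onto tetrahydrofolate. Serine hydroxymethyltransferases connect that pool to serine, and purine synthesis takes up both glycine and folate-bound carbon.

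All values below are log2 ratios of the channels as deposited, averaged over the spots of a gene and centred on the median gene of each array. Which channel is on top is not given in the sources used here. The direction is not settled. Over spots, bas1 replicate 1 correlated at r = -0.304 with BY4741 replicate 1 but at r = 0.224 with BY4741 replicate 3. For bas1 replicate 2 these correlations were r = -0.243 and r = -0.029. A difference is bas1 minus bas2, so a positive one means a higher deposited ratio in bas1, and the values with the sign of the bas1 arrays turned are given by group of genes. Within a replicate number the strains resembled each other (r = 0.625 over genes for replicate 1 and r = 0.486 for replicate 2), more than the arrays of a strain did (r = 0.077 for bas1 and r = 0.157 for bas2). Genes are not independent replicates, and these correlations are descriptions. Spots without a value numbered 71 and 5465 of 12800 on bas1 replicates 1 and 2, and 45 and 2302 on bas2 replicates 1 and 2. The SD over genes was 0.82 and 2.07 on the bas1 arrays, against 0.589 and 1.22 on the bas2 arrays. BAS1 itself stood at -0.69 and -0.39 in bas1, against 0.00 and -0.79 in bas2, and PHO2 at 0.02 on the bas1 array with a value, against -1.04 and -0.16 in bas2. Both channels of an array carried the same deletion, so these ratios do not check the labels.

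No gene passed the test of bas1 against bas2. With limma fitted over all 8 arrays, 0.0% of 3260 genes with a value on all 4 arrays had a Benjamini-Hochberg adjusted p under 0.05, and the smallest adjusted p was 0.89. At an unadjusted p under 0.05 there were 83 genes (2.55%), 30 higher and 53 lower in bas1. Without bas1 replicate 1, the widely spread bas1 replicate 2 stood alone for its strain and 233 genes passed, 81 higher and 152 lower. The members are therefore described by their values, by counts of genes whose arrays did not overlap between strains, and by whether both replicates gave 1 direction. Over all genes, both bas1 arrays lay above both bas2 arrays for 18.6% (607 genes) and below them for 19.7% (642 genes). These counts depended on centring: without it they were 140 and 357. Both bas1 arrays were above 0 and both bas2 arrays below 0 for 2.94% of genes, and the reverse held for 5.43%.

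Of the 4 glycine cleavage genes, GCV2 and LPD1 had values on all 4 arrays, and both bas1 arrays lay above both bas2 arrays for each. Neither passed the test. GCV2 (YMR189W), the glycine decarboxylase subunit, stood at 0.78 and -0.10 in bas1, against -3.72 and -2.29 in bas2. Its difference was 3.35 ± 0.69 (SE, n = 2 arrays each), with 4.50 within replicate 1 and 2.19 within replicate 2. Only in this subunit of the cleavage complex proper could both replicates be compared, since GCV1 and GCV3 had no value on bas1 replicate 2. GCV1, the aminomethyltransferase subunit, stood at -1.17 on bas1 replicate 1, against -5.45 on bas2 replicate 1. GCV3, the lipoyl carrier, stood at -0.70 on bas1 replicate 1, against -3.48 and -3.56 in bas2. In replicate 1 the differences of GCV1, GCV2 and GCV3 were 4.28, 4.50 and 2.78, and a difference of at least 1 in this direction was found for 2.08% of 5532 genes. All 4 genes of the list were higher in bas1 in replicate 1, as were 52.4% of all genes. LPD1, a dehydrogenase that the system shares with the pyruvate and oxoglutarate complexes, was at 0.06 and -0.22 in bas1, against -0.56 and -0.34 in bas2. Its difference was 0.38 ± 0.37, and 0.12 within replicate 2. On the BY4741 arrays GCV1 stood at -6.27 and -5.27, GCV2 at -1.65 and -0.64, and GCV3 at -2.76 and -2.73, and GCV1 and GCV3 were negative on bas1 replicate 1 as well. With both bas1 arrays turned the GCV2 difference was 2.66, and with bas1 replicate 1 alone turned it was 2.56.

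SHM2 (YLR058C), the cytosolic serine hydroxymethyltransferase, showed the largest positive difference among genes at least 1 higher in bas1 in both replicates without overlap. It stood at 1.41 and 0.79 in bas1, against -3.73 and -3.00 in bas2. The difference was 4.46 ± 0.67 (SE, n = 2 arrays each), the limma unadjusted p was 0.000848 and the adjusted p was 0.89. Without bas1 replicate 1 the difference was 4.15 with an adjusted p of 0.0480, the lone bas1 array being assumed to vary like the other strains. Turning both bas1 arrays left it at 2.26 and turning bas1 replicate 1 alone left it at 3.05. The mitochondrial isozyme SHM1 lay at 0.96 and 0.46 in bas1, against 0.17 and 0.15 in bas2, so the isozymes differed in size and the strains did not overlap for either. ADE3, a trifunctional enzyme that interconverts folate-bound carbon units, was positive on both bas1 arrays (0.84 and 0.48) and negative on both bas2 arrays (-0.46 and -0.59), with a difference of 1.19 ± 0.69. ADE3 and SHM1 changed sign with both bas1 arrays turned, to -0.13 and -0.88, and with replicate 1 alone turned they were at 0.35 and -0.41. MTD1, a cytosolic methylenetetrahydrofolate dehydrogenase, stood at -0.02 on bas1 replicate 1, against -1.93 and -4.46 (the latter on 1 spot) in bas2.

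The remaining folate genes did not follow SHM2. Of the 15 genes of the folate one-carbon list, 11 had a value on all 4 arrays, 3 of them (SHM1, SHM2 and ADE3) lay above bas2 in bas1 and 2 below it, against 18.6% and 19.7% of all genes. The median difference of the list was 0.00, against -0.03 over all genes, with 0.21 in replicate 1 and -0.07 in replicate 2. FAU1, of folate interconversion, stood at 0.29 and -0.64 in bas1, against 0.33 and 0.50 in bas2, and FOL2, an enzyme of folate synthesis, at 0.09 and -0.25 in bas1, against 0.14 and 0.22 in bas2. The thymidylate synthase gene CDC21, dihydrofolate reductase DFR1, MET7, MET13, FOL1 and RMA1 overlapped between the strains. The list's median ran from -0.31 without bas1 replicate 1 to 0.67 without bas1 replicate 2. It was -0.10 with both bas1 arrays turned and -0.35 with replicate 1 alone turned.

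**Figure D1:**
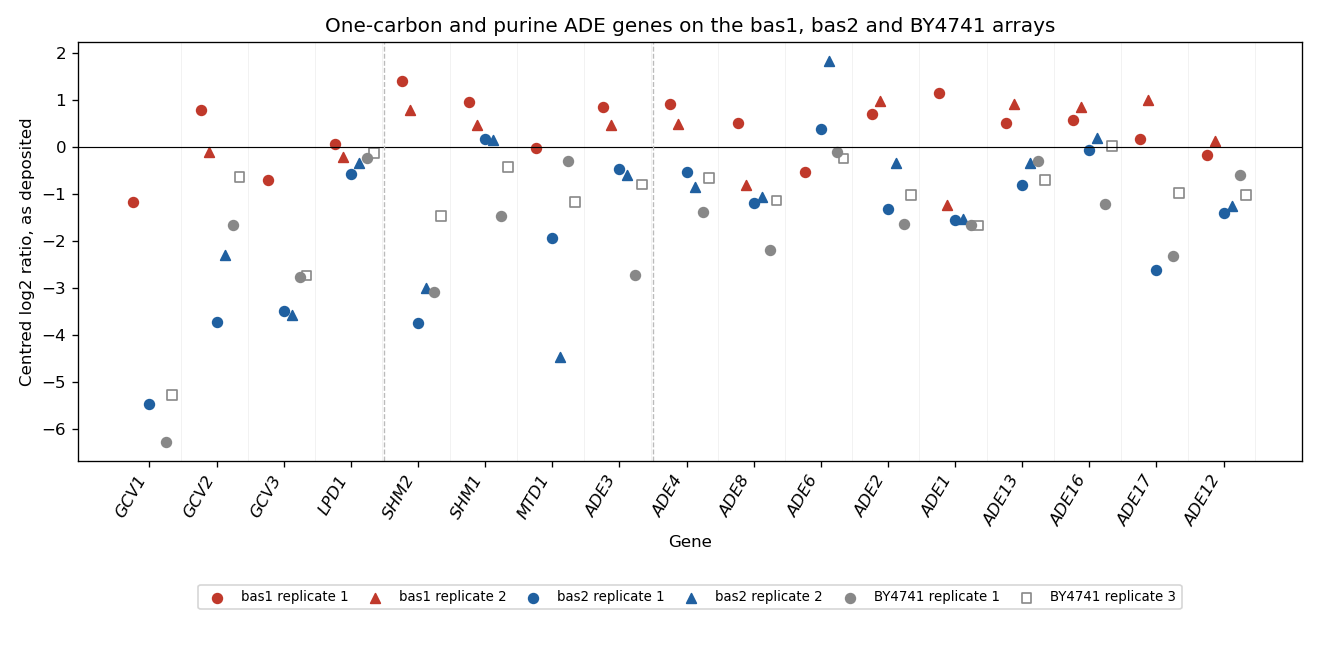
Centred log2 ratio as deposited (vertical axis) for the glycine cleavage genes, folate genes and ADE genes, with 1 point per array for bas1 (red), bas2 (blue) and BY4741 (grey); missing points had no value. SHM2 stood at 1.41 and 0.79 in bas1, against -3.73 and -3.00 in bas2, and the ADE genes with all 4 values have both red points above both blue points.

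The ADE genes encode the steps of purine synthesis. All 7 ADE genes with a value on all 4 arrays (of 9 measured and 10 listed) had both bas1 arrays above both bas2 arrays, against 18.6% of all genes. Their median difference was 1.31, with 1.44 in replicate 1 and 1.26 in replicate 2, while the median over all genes was -0.03. On the arrays themselves the list's median was 0.57 and 0.48 in bas1, against -1.20 and -0.84 in bas2. Leaving out each of the 4 arrays in turn gave medians from 1.17 to 1.44. Without centring the median was 1.10, and 3 of the 7 genes still did not overlap. No ADE gene passed the test after adjustment, and 4 had an unadjusted p under 0.05.

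By step of the pathway, ADE4 (YMR300C), the amidotransferase that commits phosphoribosyl pyrophosphate to purines, stood at 0.91 and 0.48 in bas1, against -0.53 and -0.84 in bas2. The difference was 1.38 ± 0.44 (SE, n = 2 each). ADE8, a transformylase that takes a formyl group from folate, stood at 0.52 and -0.81 in bas1, against -1.20 and -1.06 in bas2. Its strains therefore lay close in replicate 2 (a difference of 0.25) and apart in replicate 1 (1.72). ADE2, the carboxylase whose loss colours colonies red, stood at 0.70 and 0.98 in bas1, against -1.31 and -0.35 in bas2, a difference of 1.67 ± 0.50. ADE1, which acts next, was split between the bas1 arrays at 1.16 and -1.24, against -1.54 and -1.53 in bas2, so that replicate 2 differed by 0.29. ADE13, the adenylosuccinate lyase, stood at 0.52 and 0.92 in bas1, against -0.80 and -0.34 in bas2.

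The later steps held the smallest as well as some of the steadiest differences. ADE16, an isozyme of the last transformylase step, stood at 0.57 and 0.84 in bas1, against -0.07 and 0.18 in bas2, with 0.64 and 0.66 within the replicates. Its isozyme ADE17 stood at 0.17 and 0.99 (the latter on 1 spot) in bas1, against -2.62 on the bas2 array with a value. ADE12, which turns inosine monophosphate towards adenine nucleotides, stood at -0.17 and 0.13 in bas1, against -1.40 and -1.25 in bas2, a difference of 1.31 ± 0.39. ADE6 ran the other way. It had no value on bas1 replicate 2 and stood at -0.52 on bas1 replicate 1, against 0.39 and 1.82 in bas2. Each of these bas2 values rested on 1 spot. BY4741 was negative on both arrays for each of these genes except ADE16 (-1.21 and 0.02). With both bas1 arrays turned the list's median was -0.01 and 3 of 7 genes lay without overlap above bas2, and with replicate 1 alone turned the median was 0.47. ADE1, ADE8 and ADE12 kept a positive difference in both cases (1.58, 1.28 and 1.35 with both arrays turned, and 0.34, 0.46 and 1.48 with replicate 1 alone turned), as GCV2 and SHM2 did. ADE2, ADE4, ADE13 and ADE16 were negative with both arrays turned and positive with replicate 1 alone turned.

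**Figure D2:**
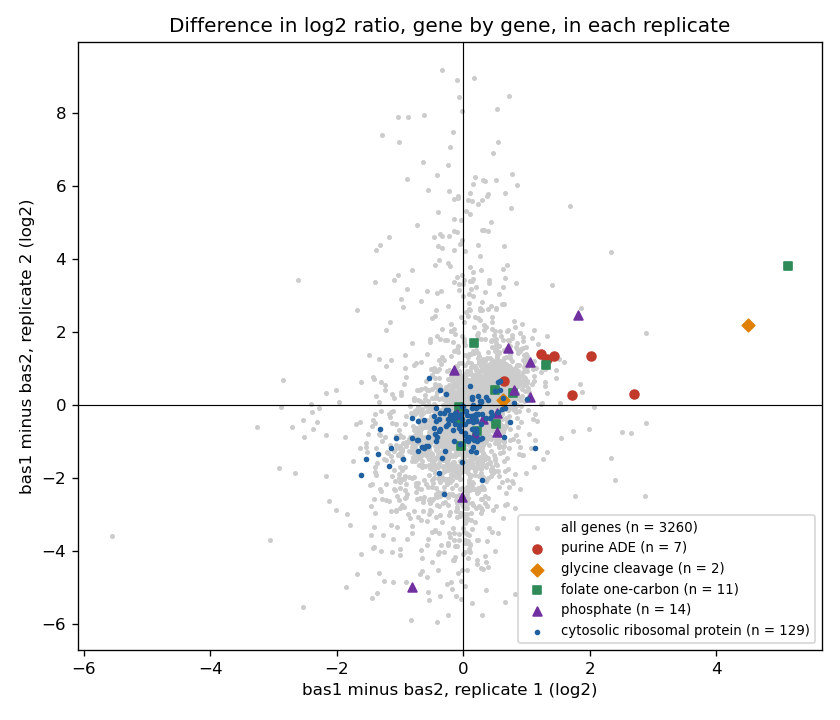
Difference bas1 minus bas2 in replicate 1 (horizontal, log2) and in replicate 2 (vertical, log2) for the 3260 genes with all 4 values, with 5 gene lists in colour. The 7 ADE genes lie in the upper right, SHM2 and GCV2 lie beyond 4 on the horizontal axis, and the cloud is wider vertically (SD 1.60) than horizontally (SD 0.591).

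The guanine nucleotide genes had ratios of 1 sign in both strains as deposited, which rests on the unsettled direction. IMD2, IMD3 and IMD4 encode inosine monophosphate dehydrogenase, the branch towards guanine nucleotides, and are near-identical enough that spots may not tell them apart. IMD2 stood at 1.84 and 2.68 in bas1, against 1.58 and 2.11 in bas2. IMD3 stood at 1.68 and 2.35 in bas1, against 1.40 and 1.62 in bas2, and IMD4 at 1.11 and 1.60 in bas1, against 1.01 and 0.97 in bas2. GUA1, the synthetase of guanosine monophosphate, stood at 1.32 and 1.01 in bas1, against 0.83 and 0.67 in bas2. The list's median difference was 0.42, with 0.27 in replicate 1 and 0.60 in replicate 2. The median ran from 0.15 without bas1 replicate 2 to 0.72 without bas1 replicate 1. For IMD3, IMD4 and GUA1 the sign of the difference turned to -0.42, -0.29 and -0.06 when each array was scaled to a common spread. Turning the sign of both bas1 arrays gave a median of -2.94, and turning replicate 1 alone gave -1.04.

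Purine salvage and uptake genes showed small differences of the same direction. Of 14 measured genes, 12 had all 4 values. Of these, 7 lay above bas2 in bas1 without overlap and 1 (XPT1) below, against 18.6% and 19.7% of all genes. The list's median difference was 0.39. FCY2, the purine and cytosine permease, stood at 1.36 and 1.26 in bas1, against 0.83 and 0.37 in bas2. PNP1, a purine nucleoside phosphorylase, differed by 0.54 ± 0.45, AMD1, the deaminase of adenosine monophosphate, by 0.51 ± 0.39, and AAH1, the adenine deaminase, by 0.47 ± 0.40. ADO1, the adenosine kinase, FUN26, a nucleoside transporter, and ISN1, an inosine monophosphate nucleotidase, differed by 0.41, 0.37 and 0.32. Each of these differences lay within 2 standard errors of 0. XPT1, a xanthine phosphoribosyltransferase, stood at -0.32 and -0.40 in bas1, against -0.08 and 0.30 in bas2. Without centring 0 of the 12 genes lay apart, against 140 above and 357 below of all 3260 genes, and the list's median was 0.18. With a common spread the list's median was 0.10. The median was -1.14 with both bas1 arrays turned and -0.49 with replicate 1 alone turned.

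Among the phosphate genes, several of which are known Bas2 targets, PHO12 had the largest positive difference without overlap. PHO12 (YHR215W), an acid phosphatase, was at 2.20 and 2.48 in bas1, against 0.38 and 0.02 in bas2, close to -0.04 and 0.39 in BY4741. Its difference of 2.13 ± 0.40 (SE, n = 2 each) had a limma unadjusted p of 0.0024 and an adjusted p of 0.89. PHO11 is a near-identical copy and its spots may share label with PHO12. It stood at 1.69 on bas1 replicate 1, against 0.08 and -2.62 (the latter on 1 spot) in bas2. VTC4, the polyphosphate polymerase, stood at 1.28 and 1.48 in bas1, against 0.22 and 0.31 in bas2, a difference of 1.11 ± 0.38. PHO8, the vacuolar alkaline phosphatase, differed by 1.13 ± 0.45, PHO84, the high-affinity phosphate transporter, by 0.63 ± 0.40, and PHO5, the main secreted acid phosphatase, by 0.60 ± 0.46. These 5 genes of the 14 with all 4 values lay above bas2 without overlap, against 18.6% of all genes. Only VTC2 lay below bas2 without overlap (by 0.19), against 19.7% of all genes.

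The list as a whole went both ways. Its median difference was 0.05, with 0.42 in replicate 1 and -0.25 in replicate 2. SPL2, a regulator of phosphate transport, stood at -2.96 and -1.52 in bas1, against -2.15 and 3.48 in bas2, and PHO81, VTC1, VTC3 and PHO86 overlapped. Without bas1 replicate 2 the list's median was 0.50, and without bas1 replicate 1 it was -0.02. Without centring the median was -0.16, with 2 of the 14 genes above bas2 and 1 below, against 140 and 357 of all 3260 genes. At a common spread the median was 0.02, with 5 above and 1 below. With both bas1 arrays turned the PHO12 difference was -2.54 and the list's median -0.78, and with replicate 1 alone turned they were -0.07 and -0.26.

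**Figure D3:**
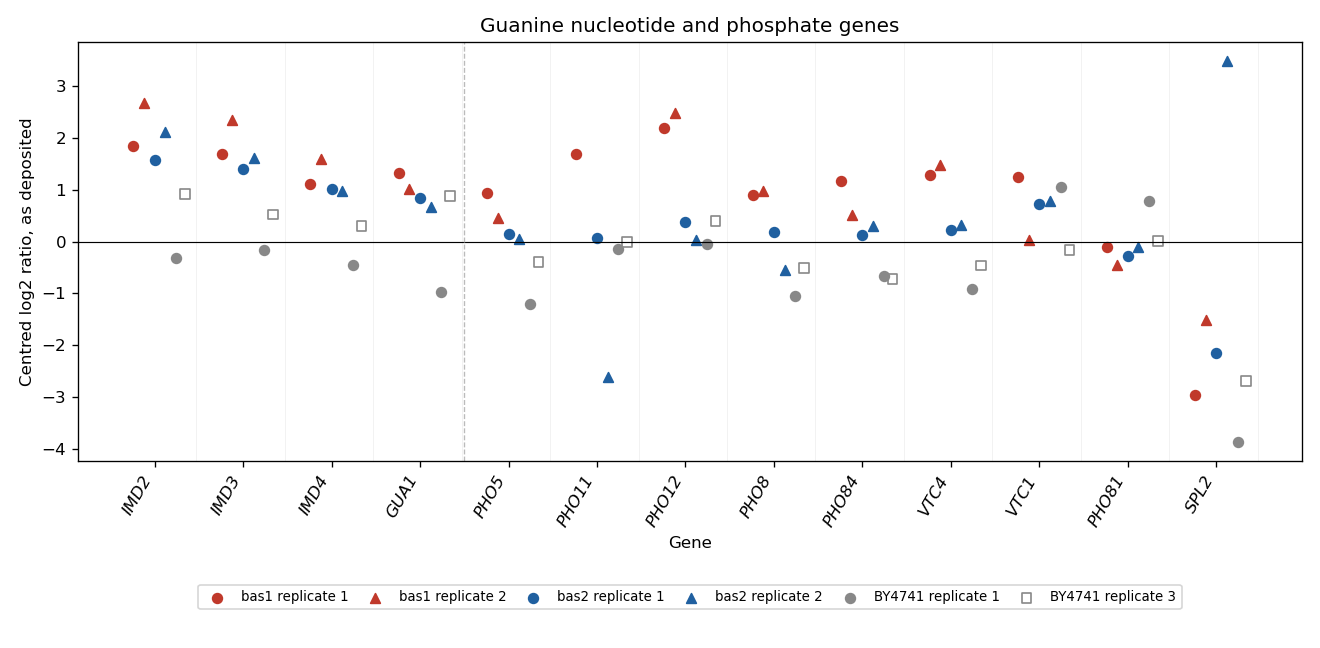
Centred log2 ratio as deposited (vertical axis) for the guanine nucleotide genes and 9 phosphate genes, with 1 point per array for bas1 (red), bas2 (blue) and BY4741 (grey). PHO12 stood at 2.20 and 2.48 in bas1, against 0.38 and 0.02 in bas2, whereas IMD2 was above 1.5 on all 4 deletion arrays.

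No gene of the amino acid lists passed the test, and the lists differed in how many genes lay apart, against 18.6% of all genes above and 19.7% below. All 5 arginine synthesis genes with 4 values lay above bas2 without overlap, with a median difference of 0.76 (0.63 and 0.86 within replicates 1 and 2). ARG3, the ornithine carbamoyltransferase, stood at 0.21 and -0.12 in bas1, against -1.26 and -0.87 in bas2. ARG1, the argininosuccinate synthetase, and ARG8, an acetylornithine aminotransferase, differed by 0.81 ± 0.48 and 0.76 ± 0.35. Branched-chain genes had a median of 0.72, with 7 of 10 above bas2 without overlap and 0 below. LEU4, the main isopropylmalate synthase, stood at 0.43 and 0.75 in bas1, against -0.12 and -0.66 in bas2. For ILV3 and ILV5 the difference came mainly from bas2 replicate 2: ILV3 stood at 0.51 and 0.98 in bas1, against -0.12 and -2.25 in bas2, and ILV5 at 1.30 and 1.35 in bas1, against 0.77 and -1.31 in bas2.

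Permeases for amino acids had a median difference of 0.72, again with 7 of 12 apart and 0 below. GNP1, a glutamine permease, stood at 1.63 and 2.74 in bas1, against 0.80 and 1.16 in bas2, TAT2, for tryptophan, at 1.07 and 0.87 in bas1, against 0.36 and -0.15 in bas2, and CAN1, for arginine, at 1.35 and 1.31 in bas1, against 0.71 and 0.29 in bas2. MET6 (YER091C), the methionine synthase that takes its methyl group from folate, was positive on both bas1 arrays (0.76 and 0.54), against -0.84 and -0.63 in bas2. Its difference was 1.39 ± 0.41, the largest of the 8 methionine and sulfur genes with 4 values as deposited, and 0.0813 with both bas1 arrays turned. CYS4, the cystathionine beta-synthase, was the other that did not overlap (0.44). Over all 18 genes of that list, 9 were higher in bas1 in replicate 1. Histidine genes, also known Bas1 and Bas2 targets, had a median of 0.31, with 3 of 5 above bas2 and 0 below, lysine genes had a median of 0.36, with 3 of 8 above and 0 below, and SER1, of serine synthesis, differed by 1.09 ± 0.38. The medians with both bas1 arrays turned were 0.44 for arginine, -1.11 for branched-chain, -1.72 for permease, -0.92 for methionine, -0.15 for histidine and -1.44 for lysine genes. With replicate 1 alone turned they were 0.53, -0.22, -0.32, -0.38, -0.08 and -0.41 in that order. SER1 was then at -0.29 and 0.51. Without centring 0 arginine, 0 branched-chain and 2 permease genes lay apart, at medians of 0.55, 0.51 and 0.51, and the branched-chain and permease medians were 0.32 and 0.23 at a common spread.

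Carbon metabolism genes differed less evenly. All 16 glycolysis genes had a positive difference, with a median of 0.52, but only ADH1 (0.96 ± 0.67), PFK1 (0.66) and PFK2 (0.72) did not overlap. On each of bas1 replicate 1 and bas2 replicate 1, 6 of the 16 were deposited with a ratio within 0.003 of 1, against 0 on the replicate 2 arrays, and whether these spots were saturated was not tested. Without bas1 replicate 2 the glycolysis median was -0.24, without bas2 replicate 1 it was -0.145, without bas2 replicate 2 it was 1.09 and without bas1 replicate 1 it was 1.26. The citric acid cycle list had a median of 0.57 and 3 of 12 genes apart, a share like the 3 of 16 for glycolysis and near the 18.6% of all genes. IDH1, a subunit of isocitrate dehydrogenase, LSC1, of succinyl-CoA ligase, and FUM1, fumarase, differed by 0.78, 0.72 and 0.61. The cycle's median ran from 0.17 without bas1 replicate 2 to 0.80 without bas1 replicate 1. Turning both bas1 arrays gave medians of -1.42 for glycolysis and -0.57 for the cycle, and turning replicate 1 alone gave 0.27 and 0.12.

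Iron, zinc and stress genes had medians of 1 sign on all 4 arrays as deposited, which rests on the unsettled direction. Iron genes had medians of 1.35 and 1.47 in bas1, against 0.84 and 0.94 in bas2, and the ratio of FIT2, which encodes a mannoprotein involved in siderophore iron uptake, was 4.47 and 4.81 in bas1, against 3.84 and 4.76 in bas2. Zinc genes had medians of 0.99 and 1.57 in bas1, against 0.99 and 1.36 in bas2. General stress genes had medians of -0.95 and -0.78 in bas1, against -1.16 and -1.06 in bas2. Of 26 stress genes, 10 lay above bas2 and 4 below without overlap, and 7 and 1 of 17 iron genes did. These counts per list stand beside the 18.6% and 19.7% of all genes. At a common spread the median differences were -0.18 for iron, -0.33 for zinc and 0.83 for stress genes. Iron genes apart then numbered 1 above and 1 below, and stress genes 14 and 0, against 426 and 647 of all 3260 genes. Without centring, iron genes apart numbered 4 and 1 and stress genes 7 and 6, against 140 and 357 of all genes. The median differences with both bas1 arrays turned were -2.53 for iron, -2.51 for zinc and 2.01 for stress genes, against 0.43, 0.29 and 0.44 as deposited, and FIT2 and TIS11 passed the test. With replicate 1 alone turned they were -0.88, -0.72 and 1.07.

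**Figure D4:**
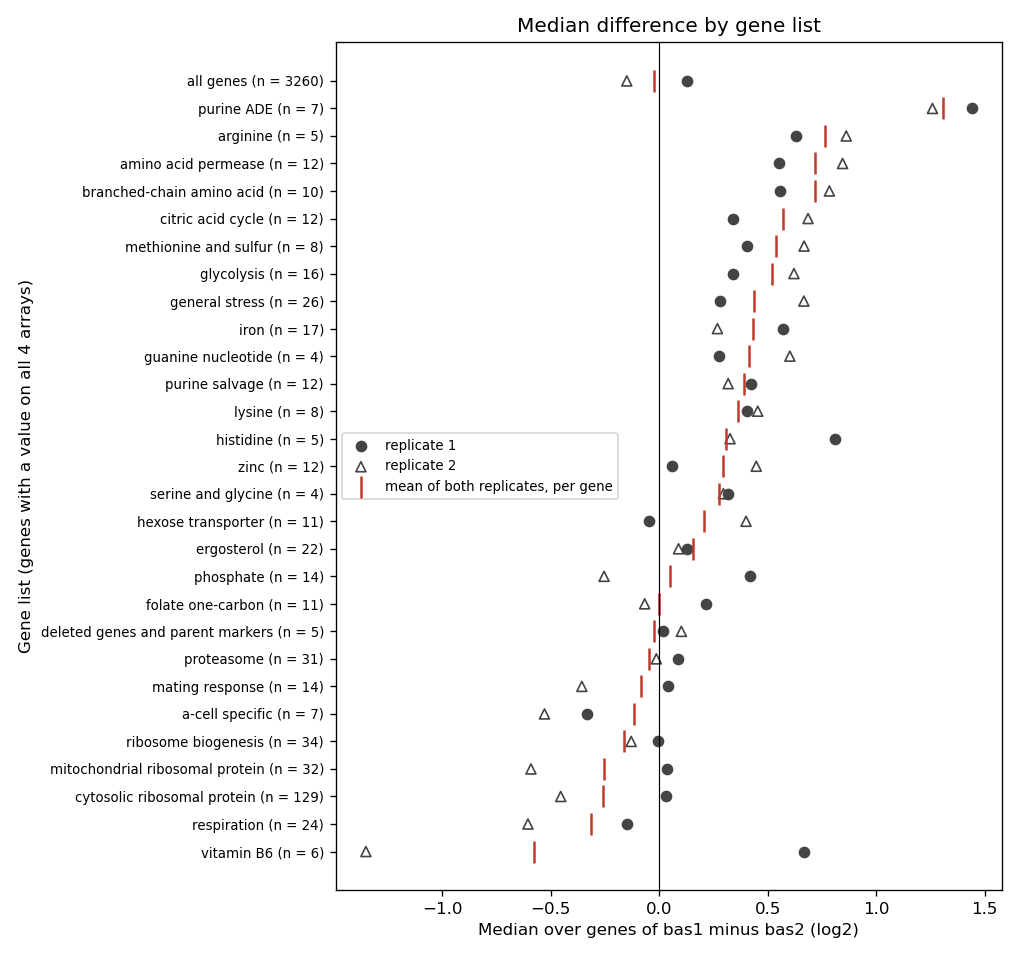
Median over genes of the difference bas1 minus bas2 (horizontal axis, log2) for each gene list with at least 4 genes measured on all 4 arrays, in replicate 1 (filled circles), in replicate 2 (open triangles) and for the mean of both per gene (red bars). The ADE genes lie at 1.44 and 1.26, away from the median of all genes at 0.13 and -0.15, and the vitamin B6 list has its replicates on opposite sides of 0.

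Among all genes, 24 (0.736%) were at least 1 higher in bas1 in both replicates without overlap, and 79 (2.42%) at least 1 lower. The 10 highest held SHM2, GCV2, PHO12, ADE2 and MET6, described above. SNZ1, of vitamin B6 synthesis, stood at -0.34 and -2.07 in bas1, against -3.23 and -4.03 in bas2, near the -4.35 and -3.69 of BY4741. BDH1, a butanediol dehydrogenase, changed sign between the strains, at 0.42 and 0.68 in bas1, against -1.45 and -1.97 in bas2, a difference of 2.26 ± 0.65. KAR2, the chaperone of the endoplasmic reticulum, stood at 0.80 and 1.56 in bas1, against -0.38 and -0.11 in bas2. NAT1, a subunit of an N-terminal acetyltransferase, stood at 1.44 and 2.47 in bas1, against 0.32 and 0.43 in bas2. PRM2, a pheromone-regulated membrane protein, stood at 2.98 and 6.38 in bas1, against 0.65 and 2.19 in bas2, and rested on 1 spot on each replicate 2 array. With both bas1 arrays turned, SNZ1 and BDH1 stayed positive (4.84 and 1.16), while PRM2, NAT1 and KAR2 were at -6.10, -2.33 and -0.94.

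The 10 lowest differences mostly came with strongly negative ratios in bas1, above all on its replicate 2. TMA23, a nucleolar protein, stood at -3.78 and -3.97 in bas1, against 1.79 and -0.38 in bas2, a difference of -4.58 ± 1.19. KAR1, of the spindle pole body, stood at -2.43 and -5.34 in bas1, against 0.11 and 0.22 in bas2. COQ4, of ubiquinone synthesis, stood at -0.14 and -3.76 in bas1, against 2.92 and -0.05 in bas2. The others repeated the pattern of KAR1, with a ratio between -2.47 and -1.06 on bas1 replicate 1 and between -4.94 and -4.33 on bas1 replicate 2. They were YHC1 and SMD3, of the splicing particles, YPT6, a Rab GTPase, PXR1, NOP15 and TSR2, of ribosome assembly, and SSS1, of the protein translocon of the endoplasmic reticulum. Their differences ran from -3.43 (YHC1) to -2.97 (SMD3). YPT6, PXR1, NOP15 and SSS1 rested on 1 spot on bas1 replicate 2. All 10 were positive with both bas1 arrays turned, at 0.52 for COQ4 and 2.51 to 3.72 for the others, and all 10 remained negative with replicate 1 alone turned. Ribosome biogenesis genes as a list had 9 of 34 genes above bas2 and 12 below without overlap, against 18.6% and 19.7% of all genes, and a median of -0.16 (-0.0036 with both bas1 arrays turned, and -0.34 with replicate 1 alone turned).

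**Figure D5:**
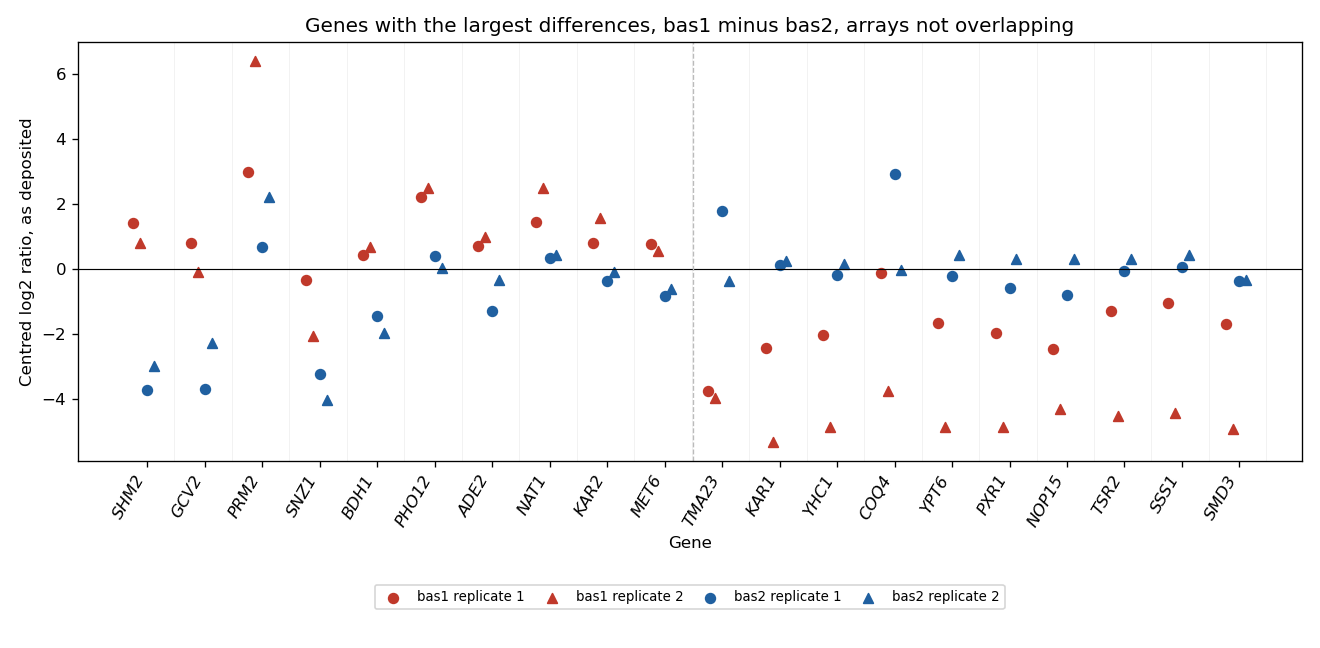
Centred log2 ratio as deposited (vertical axis) on each bas1 (red) and bas2 (blue) array for the 10 highest and 10 lowest differences among genes at least 1 apart in both replicates without overlap. To the left of the dashed line the bas1 points lie higher, as for BDH1 (0.42 and 0.68 in bas1, against -1.45 and -1.97 in bas2), and to the right they lie lower, with bas1 replicate 2 mostly below -4.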

How the data were processed

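The labels name a GenePix scanner and the GenePix Pro software. Per the deposited table, each spot has a log2 channel ratio, as seen from the values. For at least 98.43% of each array's values, the antilog fell on a multiple of 0.001 to within 0.01 of that step. Not given in the sources used here are background handling, filters, dyes and normalization, and the array medians differed (-0.78 to 0.65 over genes). The number of arrays limits the precision, since channel signals were not used here. Of 12800 spots, 11138 carried 1 gene symbol, 0 several and 1662 none, and 11128 were renamed through the RefSeq table. No genome build is named, so no positions are given.

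Spots were averaged per gene (5539 genes) and arrays were centred on their median. The difference of the bas1 and bas2 means was tested with limma 3.58.1 in R 4.3.3 as a two-sided test in a model of the 8 arrays with a mean for each of 5 strains, which shares the spread (residual df of 3 or fewer, prior df 2.385, prior SD 0.523). The test was checked on simulated data with independent values, 1 common spread and no missing values. Unequal spreads, missing spots and likeness between arrays were therefore not covered by that check. Errors are the standard errors of the limma fit. Members and the 31 gene lists were chosen with earlier results of these data known, and the lists got no test. Genes named are those of the one-carbon, purine and phosphate lists without overlap, the 10 largest differences a side among genes at least 1 apart in both replicates without overlap, and up to 3 of each other list with a median of at least 0.5 in size and 1 sign in both replicates. SER1, FIT2, TIS11, IMD2, SPL2, SAG1, the a-cell and SNZ genes and genes without 4 values were named outside that rule after their values were seen. BAS1 was named as a deleted gene, and genes said only to overlap were named as members of their list. In all, 16 other settings were tried.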

Additional observations from a re-analysis of the deposited data

Results flagged for a closer look

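For 16 of the 63 named genes both bas1 arrays lay on 1 side of the array median and both bas2 arrays on the other. Limma's test of the difference itself gave an adjusted p of 0.89 or more for each. The named genes were chosen for arrays that did not overlap, which opposite sides of the median require. Over all 3260 genes, 2.94% were above the median in bas1 and below it in bas2, and 5.43% the other way. These were 96 of the 607 genes without overlap above bas2, and 177 of the 642 below it. The shares over all genes are therefore no yardstick for the 16. Among one-carbon and purine genes the differences, bas1 minus bas2, were 4.46 for SHM2, 1.19 for ADE3, 1.67 for ADE2, 1.38 for ADE4, 1.29 for ADE13 and 0.32 for ISN1. Among amino acid and carbon genes they were 1.39 for MET6, 0.81 for ARG1, 0.76 for ARG8, 1.92 for ILV3, 0.98 for LEU4 and 0.72 for LSC1. BDH1 and KAR2 differed by 2.26 and 1.42. KAR1 and SSS1 were below the median in bas1 and above it in bas2, with differences of -4.05 and -2.99.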

How the results depend on the processing

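The number of genes past limma's test was 0 in 14 of the 16 settings besides the one reported. It was 2 (FIT2 and TIS11, lower in bas1) with both bas1 arrays turned, and ran from 0 to 233 when 1 array was left out, 233 being without bas1 replicate 1. Leaving out either BY4741 array gave the same fit as the 4 bas1 and bas2 arrays alone, so these settings are not separate checks. Numbers pair the arrays only by label. The deviations of bas1 and bas2 arrays with 1 number correlated at r = 0.542 over genes, a hint from 2 pairs. With the replicate block on the 4 arrays 0 genes passed (smallest adjusted p = 0.593, 154 at an unadjusted p under 0.05, against 124 without the block), and no named gene changed its call. The median of the ADE genes was 1.10 without centring, 1.54 at a common spread, -0.0096 with both bas1 arrays turned and 0.47 with bas1 replicate 1 turned, and 1.17 to 1.44 with 1 array left out. Without centring the median of all genes was -0.23, against -0.03.

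Of 63 named genes, 4 changed sign at a common spread (IMD3 -0.42, IMD4 -0.29, GUA1 -0.0608, IDH1 -0.0862) and 0 when 1 array was left out. With both bas1 arrays turned 16 kept their sign and 47 changed it. The differences were then -0.88 for SHM1, -0.13 for ADE3, -0.012 for ADE2, -0.0096 for ADE4, -0.15 for ADE13, -0.76 for ADE16, -3.52 for IMD3, -2.35 for IMD4 and -1.91 for GUA1. They were -1.20 for AAH1, 0.25 for XPT1, -1.50 for ADO1, -0.44 for AMD1, -1.91 for FCY2, -1.19 for FUN26, -0.97 for PNP1, -0.79 for PHO5, -0.76 for PHO8, -2.54 for PHO12, -1.04 for PHO84, 0.12 for VTC2 and -1.65 for VTC4. Others were -6.10 for PRM2, -2.33 for NAT1, -0.94 for KAR2, 3.17 for TMA23, 3.72 for KAR1, 3.47 for YHC1, 0.52 for COQ4, 3.17 for YPT6, 3.57 for PXR1, 3.65 for NOP15, 2.80 for TSR2, 2.51 for SSS1 and 3.68 for SMD3. The rest were -1.06 for ILV5, -0.20 for LEU4, -1.40 for CYS4, -1.34 for ADH1, -2.27 for PFK2, -2.43 for PFK1, -3.52 for IDH1, -0.0847 for LSC1, -1.70 for FUM1, -3.17 for GNP1, -1.08 for TAT2 and -1.83 for CAN1. With bas1 replicate 1 alone turned 21 changed sign: SHM1 -0.41, IMD3 -1.18, IMD4 -0.75, GUA1 -0.91, AAH1 -0.17, ADO1 -0.51, FCY2 -0.65, FUN26 -0.48, PNP1 -0.42, PHO5 -0.35, PHO12 -0.0666, PHO84 -0.53, VTC4 -0.17, CYS4 -0.36, PFK2 -0.55, PFK1 -0.65, IDH1 -1.02, FUM1 -0.49, GNP1 -0.43, TAT2 -0.21 and CAN1 -0.52. Without bas1 replicate 1, 9 named genes passed, SHM2, PRM2, KAR1, YHC1, YPT6, PXR1, NOP15, TSR2 and SSS1.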

Other observations

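Of 7 genes specific to a cells with all 4 values, 3 lay below bas2 in bas1 without overlap and 0 above, against 19.7% and 18.6% of all genes. MFA1, a precursor of a-factor, stood at 0.02 and -0.51 in bas1, against 1.15 and 1.46 in bas2. MFA2, the other precursor, stood at 0.42 and 0.34 in bas1, against 0.93 and 1.33 in bas2. BAR1, a secreted protease, differed by -0.04, and the list's median was -0.12. The median was -0.48 without bas1 replicate 1, -0.345 without bas1 replicate 2, -1.51 with both bas1 arrays turned and -1.17 with replicate 1 alone turned. Of the 4 genes specific to alpha cells, silent in these a strains, SAG1 alone had all 4 values, with a difference of -0.38.

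Cytosolic ribosomal protein genes had a median difference of -0.26 over 129 genes, 41 below bas2 and 8 above without overlap, against 19.7% and 18.6% of all genes. The median was 0.03 in replicate 1 and -0.45 in replicate 2, and 0.05 without bas2 replicate 2. Without bas2 replicate 1 it was -0.60, with 100 of 129 genes below the remaining bas2 array, as were 1056 of 3261 among all genes. It was -0.42 with both bas1 arrays turned and -0.24 with replicate 1 alone turned. On bas1 replicate 1 and bas2 replicate 1, 30 and 19 of 132 such genes were deposited with a ratio within 0.003 of 1, and leaving such spots out gave a median of -0.24 over 91 genes. The part of these spots in the result was not tested further.

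The SNZ paralogs of vitamin B6 synthesis differed by 2.90, 2.02 and 1.26 in replicate 1 (SNZ1, SNZ2 and SNZ3). In replicate 2 SNZ2 and SNZ3 were lower in bas1, at -5.28 and -1.89, against -0.63 and -0.39 in bas2. The differences of SNZ1, SNZ2 and SNZ3 with both bas1 arrays turned were 4.84, 4.26 and 2.14.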
